A study of Chlorella vulgaris with 6 samples.

Results

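EMS-25 and UV-715 are mutants of the green alga Chlorella vulgaris SAG 211-12, obtained after chemical and ultraviolet mutagenesis, and the series groups both as high-lipid producers. Their transcript levels were set against each other with 2 EMS-25 libraries and 2 UV-715 libraries, 4 of the 6 libraries of the series, and the other 2 come from wild type of the same strain. The labels name EMS-25 as an EMS mutant and UV-715 as a UV mutant. They describe exposure to light of 254 nm followed by transfer of single colonies, so a mutant may stand for 1 picked line, and they do not describe the EMS treatment. All 3 strains were sampled in the same state, 14 days old in stationary phase at an optical density of 5 (680 nm). Of 18600 assembled transcript features, 17535 had a value of at least 1 in 2 or more of the 4 mutant libraries and were kept, and 1065 were left out, 275 of them listed at 0 in all 4. The features just inside this limit had 5.26 and 0 in EMS-25, against 1 and 0 in UV-715 (TRINITY_DN3018_c0_g2), and those just outside had 1.1 and 0 in EMS-25, against 0.268 and 0.99 in UV-715 (TRINITY_DN4975_c0_g1).

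Chlorella vulgaris is a unicellular alga that stores carbon as starch and, when growth slows or nitrogen runs short, as triacylglycerol in lipid droplets. Ethyl methanesulfonate (EMS) alkylates bases, mainly guanine, and leaves mostly single-base changes, whereas ultraviolet light links neighbouring pyrimidines and can leave both base changes and small deletions. Each mutant can therefore carry many unrelated changes, and a comparison of both asks where strains grouped by the same trait differ in their messenger RNA. The features carry IDs of the Trinity assembler and no gene names, so they are described by ID, level and assembly group. In such an ID, DN names a cluster of related contigs, c a component of that cluster and g a feature that the assembler treats as a gene.

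The deposited values are a normalised expression signal, already scaled between libraries by the authors. A value is a share of the sequenced RNA of a culture, so fewer cells with a transcript and less of it per cell cannot be told apart. The sums of the mutant libraries lay between 970974 and 1029717. Absolute depth is unknown, and the relative depth, read from the commonest ratio of low values between libraries, was 0.946 and 0.38 in EMS-25, against 1 and 0.47 in UV-715 (replicates 1 and 2), with UV-715 replicate 1 as the unit, and 0.955 and 0.232 in wild type. The shallower replicate 2 libraries listed more features at 0, with 1485 and 3204 in EMS-25, against 1406 and 2826 in UV-715. Replicates are called biological in the labels, which do not mention separate cultures, so p-values reflect only how far these libraries vary, and that may be partly technical variation.

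EMS-25 and UV-715 differed in 846 of 17535 features (4.82%) at a limma adjusted p under 0.05, with 503 higher in EMS-25 (2.87%) and 343 lower (1.96%). The excess of higher features depended on scaling: it was 460 higher and 478 lower with libraries rescaled by the median ratio of abundant features, and 492 and 454 with libraries set to the same sum. The features higher in EMS-25 held 15.4% of the summed signal in each EMS-25 library, against 10.1% and 9.97% in the UV-715 libraries. Those lower in EMS-25 held 5.64% and 5.63% in EMS-25, against 9.16% and 9.15% in UV-715. Both sets were chosen for these differences, so the direction of the shares follows from the choice. In the wild-type libraries the higher features held 13.9% each, and the lower features 5.95% and 5.97%. The median level over the 4 mutant libraries was 103 among the higher and 94.6 among the lower features.

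Most differences were moderate. The median log2 fold change (of the value plus 1, EMS-25 minus UV-715) was 0.812 among higher and -0.793 among lower features. A fold change of at least 2 was found for 318 calls (1.81% of the features tested), with 204 higher and 114 lower. At least 8-fold were 44 higher and 18 lower features, and these 62 had a median level of 11.1, where the added 1 shrinks the fold change and many values are 0. Before adjustment, 3423 features had a p under 0.05. The number of calls rested on all 4 mutant libraries: it was 130 and 131 without EMS-25 replicate 1 and 2, and 46 and 26 without UV-715 replicate 1 and 2. Without EMS-25 replicate 1 the majority turned, at 58 higher and 72 lower. Without the intensity trend of the test the count was 288, with 122 higher and 166 lower. Only 142 of these 288 were among the 846, so the trend changed which features were called as well as how many.

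**Figure D1:**
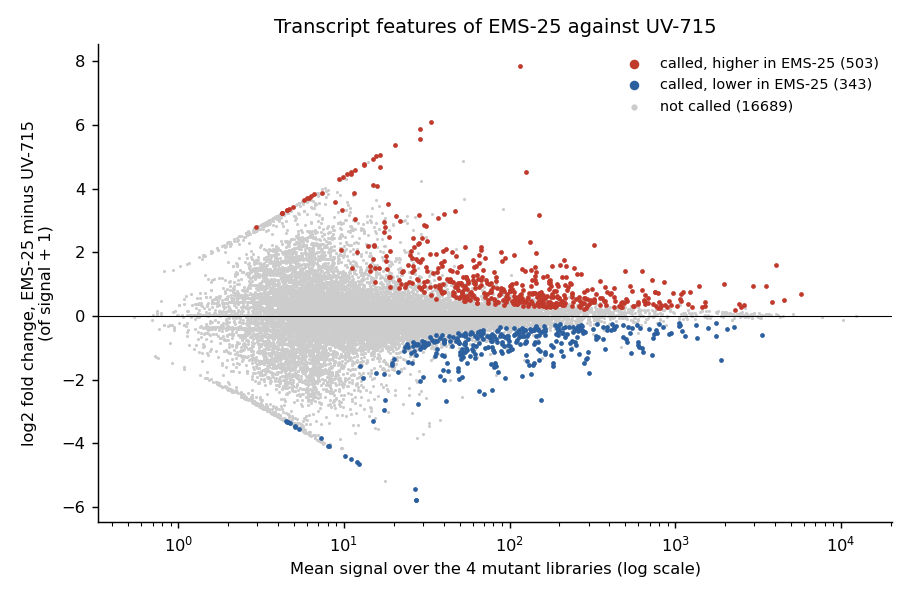
Each point is 1 of 17535 features, with the mean signal over the 4 mutant libraries on the x axis (log scale) and the log2 fold change of EMS-25 over UV-715 (of the signal plus 1) on the y axis. Red points were called higher in EMS-25 (503), blue points lower (343), grey points were not called. Calls at high signal reach small fold changes, and at a signal near 10 the called features are those with steep ones, along the edge formed by features listed at 0 in a mutant.

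Calls gathered among abundant transcripts, where replicates agreed best. Among 7574 features with a mean under 10 in the mutants, 29 were called (0.383%), and among 5072 features between 10 and 30, 110 were called (2.17%). The share was 8.72% of 3268 features between 30 and 100 and 24.1% of 1153 between 100 and 300. It was 32.5% of 329 features between 300 and 1000 and 26.6% of 139 at 1000 or more. In the same order the typical called change became smaller, the median absolute log2 fold change being 3.46 under 10, 0.904 between 30 and 100, and 0.449 at 1000 or more. The robust SD of the log2 ratio between replicates was 1.3 (EMS-25) and 1.1 (UV-715) under 10, and 0.052 and 0.046 at 1000 or more. A 2-fold difference, 1 on the log2 scale, thus exceeded this spread many times over at 1000 or more and was smaller than it under 10.

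**Figure D2:**
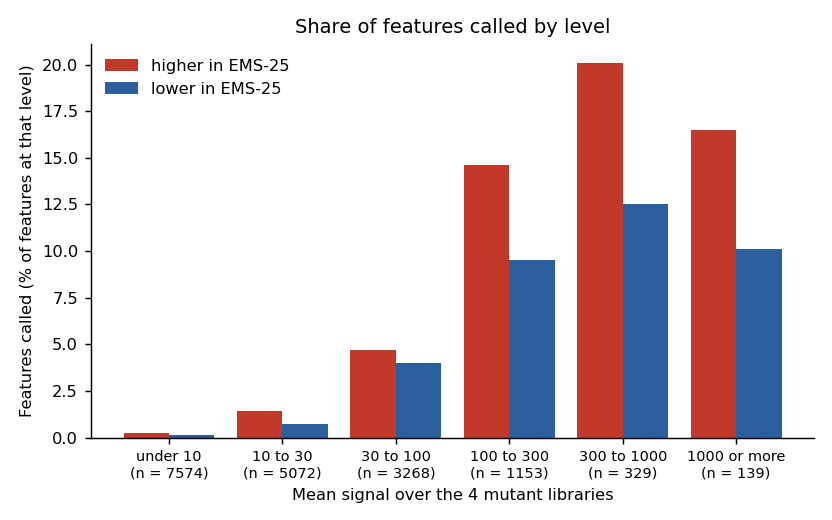
Bars give the percentage of features called higher (red) or lower (blue) in EMS-25 within each band of mean signal over the 4 mutant libraries, with the number of features in the band under it. The share rises from under 1% in the lowest band to over 10% in each direction between 300 and 1000.

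The difference between the mutants recurred in separate pairs of libraries for abundant features. The log2 difference of EMS-25 replicate 1 from UV-715 replicate 1 and that of replicate 2 from replicate 2 share no library. Across the 139 features at 1000 or more their Pearson's r was 0.961, and across the 329 features between 300 and 1000 it was 0.929. It was 0.629 between 30 and 100 and 0.209 under 10, and 0.269 across all 17535. These are descriptions across features, which are not independent replicates, and same-numbered libraries share a similar depth. Both libraries of a mutant lay above or below both of the other in 52.1% of all features kept, and in all 846 called ones.

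A core of 23 features was called in the same direction with all libraries and when any 1 of the 6 libraries was left out, 18 higher and 5 lower in EMS-25. They were singled out after these results were seen, and 59.5% of all 846 calls were higher in EMS-25. Each of the 23 passed only narrowly in at least 1 of the fits that lack a library. Membership of this set therefore depends on where the threshold is drawn. All 23 differed at least 2-fold and their mean levels ran from 15.7 to 631. The steepest of those present in every library, TRINITY_DN6265_c0_g1, had 239 and 247 in EMS-25, against 11.3 and 8.25 in UV-715, with 59.9 and 51.9 in wild type (log2 fold change 4.51, SE 0.16, limma adjusted p 0.000505). Wild type thus stood between the mutants, apart from both. TRINITY_DN5946_c1_g1 had 33.1 and 29.6 in EMS-25 but stood at 0 in both UV-715 libraries, with 40.1 and 45.5 in wild type (limma adjusted p 0.00169). Here UV-715 stood apart, while EMS-25 and wild type both held the transcript.

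Of the 4 higher features with the smallest p, 2 belong to a single assembly cluster. TRINITY_DN5889_c27_g1 had 225 and 221 in EMS-25, against 43.5 and 44 in UV-715, a 5.1-fold higher mean in EMS-25, with 83 and 80.1 in wild type (log2 fold change 2.32, SE 0.06, limma adjusted p 0.000505). TRINITY_DN5889_c18_g1 had 505 and 571 in EMS-25, against 112 and 115 in UV-715, 4.74-fold higher, with 262 and 277 in wild type. In both, the 3 strains stood at separate levels, in the order EMS-25, wild type, UV-715. Of the 68 features kept in this cluster 4 were called, 3 higher and 1 lower, a share near the 4.82% called over all features, and the median log2 fold change over the 68 was -0.143.

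TRINITY_DN1214_c0_g2 had 305 and 300 in EMS-25, against 100 and 98.9 in UV-715, with 189 and 188 in wild type (3.04-fold higher in EMS-25). The other feature of its component, TRINITY_DN1214_c0_g1, was higher as well, at 110 and 93.4 in EMS-25, against 31 and 42.5 in UV-715 (limma adjusted p 0.0215), so that the whole component differed. TRINITY_DN2930_c0_g1 had 263 and 274 in EMS-25, against 91 and 89.5 in UV-715, with 282 and 281 in wild type. In this feature EMS-25 stood close to wild type and UV-715 far below both.

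Among the features lower in EMS-25, the smallest p values belonged to transcripts that stood high in UV-715. TRINITY_DN2283_c0_g1 had 50.2 and 49.5 in EMS-25, against 187 and 186 in UV-715, with 70.7 and 75.5 in wild type (log2 fold change -1.88, SE 0.07, limma adjusted p 0.000505). TRINITY_DN3778_c0_g1 had 45.5 and 39.1 in EMS-25, against 262 and 274 in UV-715, with 78.4 and 89.7 in wild type, a 6.33-fold higher mean in UV-715. This last call was lost without UV-715 replicate 2 (limma adjusted p 0.0598, with a log2 fold change between -2.75 and -2.53 over the 6 fits that each lack a library). In both features the wild-type values lay between the mutants and nearer to EMS-25.

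TRINITY_DN9993_c0_g1 had 80.8 and 84.1 in EMS-25, against 221 and 216 in UV-715, with 100 and 101 in wild type. TRINITY_DN8005_c0_g1 had 250 and 244 in EMS-25, against 518 and 506 in UV-715, with 299 and 295 in wild type. Both repeat the pattern of a level in UV-715 that is more than 2-fold above EMS-25 while wild type sits slightly above EMS-25. TRINITY_DN10914_c0_g1 differed from this pattern: it had 151 and 155 in EMS-25, against 318 and 310 in UV-715, with 310 and 309 in wild type, so that EMS-25 was the strain that stood apart (log2 fold change -1.03, SE 0.04, limma adjusted p 0.00071). The call of TRINITY_DN8005_c0_g1 was lost without the intensity trend.

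**Figure D3:**
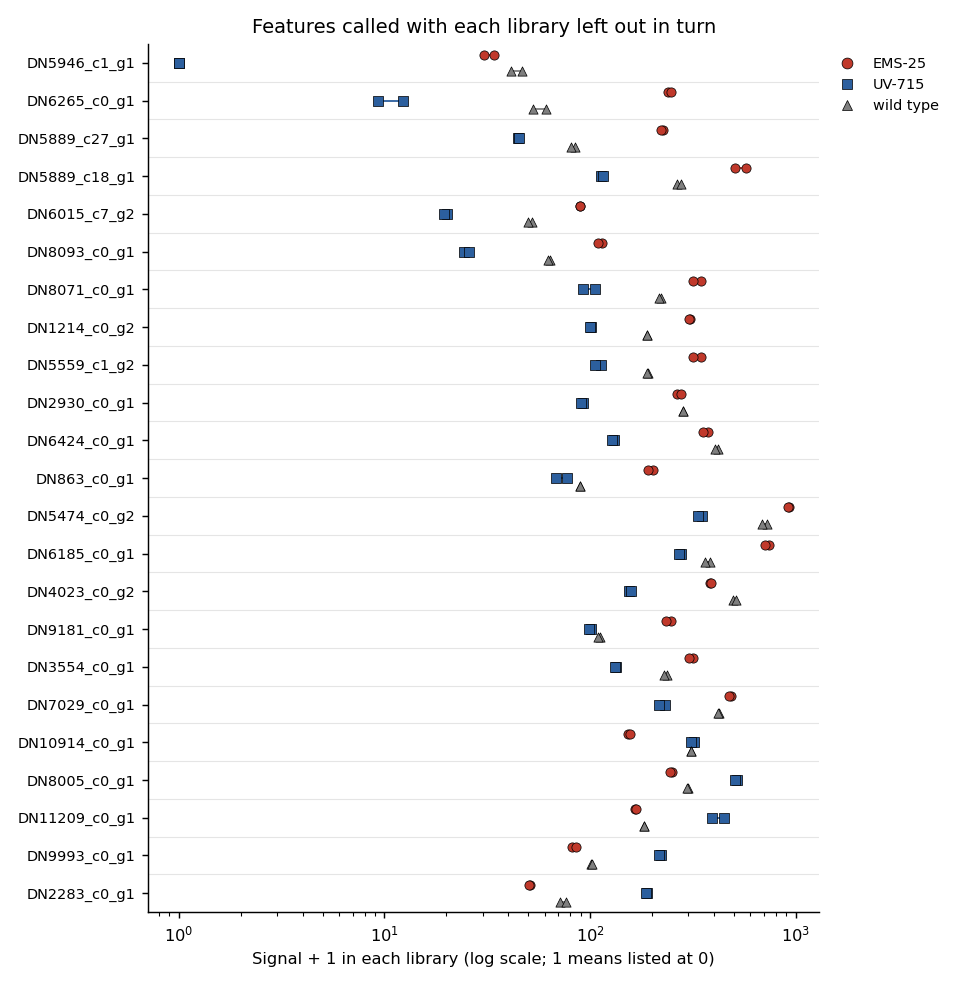
Each row is 1 of the 23 features called with all libraries and with each library left out, ordered by log2 fold change from highest to lowest in EMS-25. Points give the signal plus 1 in every library on a log axis (red circles EMS-25, blue squares UV-715, grey triangles wild type), and a line joins the libraries of a strain. Replicates lie close together relative to the gap between the mutants, and the wild-type points lie nearer to EMS-25 than to UV-715 in 18 rows. Over all 846 called features wild type was nearer to EMS-25 in 618 (73%).

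The largest differences in level were found in some of the most abundant transcripts. TRINITY_DN6854_c0_g1 had 6463 and 5821 in EMS-25, against 2168 and 1888 in UV-715, with 6111 and 5269 in wild type (3.03-fold higher in EMS-25, log2 fold change 1.60, SE 0.10, limma adjusted p 0.00207). TRINITY_DN216_c0_g1 had 7170 and 6963 in EMS-25, against 4537 and 4296 in UV-715, with 6884 and 6654 in wild type (1.6-fold). TRINITY_DN9766_c0_g1 had 4833 and 4449 in EMS-25, against 2527 and 2344 in UV-715, with 4734 and 4386 in wild type (1.91-fold). In these features the ranges of EMS-25 and wild type overlapped or nearly met, and UV-715 lay far below both.

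TRINITY_DN3565_c0_g1 had 4045 and 3720 in EMS-25, against 2052 and 1952 in UV-715, with 3541 and 3292 in wild type. Its component holds a second, less abundant feature, TRINITY_DN3565_c0_g2, which had 568 and 534 in EMS-25, against 301 and 294 in UV-715 (log2 fold change 0.89, limma adjusted p 0.00234). Both features of the component were therefore higher in EMS-25, by similar folds.

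In the other direction, TRINITY_DN5968_c0_g1 had 1132 and 981 in EMS-25, against 2837 and 2626 in UV-715, with 1336 and 1180 in wild type (2.59-fold higher in UV-715, limma adjusted p 0.00221). TRINITY_DN5683_c0_g1 had 2608 and 2697 in EMS-25, against 4037 and 4042 in UV-715, with 2542 and 2714 in wild type. TRINITY_DN2583_c0_g1 had 1069 and 1001 in EMS-25, against 1664 and 1655 in UV-715, with 1388 and 1390 in wild type. The first and second of these had wild type close to EMS-25, whereas the third had wild type at a level of its own between the mutants.

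TRINITY_DN5473_c0_g1 was the exception among the abundant features. It had 1409 and 1367 in EMS-25, against 2150 and 2121 in UV-715, but 290 and 268 in wild type, so both mutants stood far above wild type and UV-715 a further 1.54-fold above EMS-25 (log2 fold change -0.62, SE 0.05, limma adjusted p 0.00341). The 8 abundant features described in these paragraphs all lost their calls without UV-715 replicate 1, and again without UV-715 replicate 2 (limma adjusted p between 0.0679 and 0.091). Without EMS-25 replicate 1, 4 lost theirs, and without EMS-25 replicate 2, 3 did (largest adjusted p 0.0566 and 0.0648), and 7 of the 8 were not called without the intensity trend (largest adjusted p 0.14).

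Among the dominant transcripts calls were more frequent than the 4.82% over all features. Calls were frequent at high levels in general, at 26.6% of the 139 features at 1000 or more. Of the 20 features with the highest mean, 5 were higher in EMS-25 by the test and 1 was lower, and of the top 100, 13 were higher and 7 lower. The top 20 together held 10.7% of the signal in each EMS-25 library, 9.97% and 10.1% in UV-715, and 10.8% and 10.7% in wild type. The most abundant feature, TRINITY_DN9721_c0_g1, had 12849 and 11913 in EMS-25, against 12802 and 12047 in UV-715, values whose ranges overlap (log2 fold change -0.01, SE 0.07, limma adjusted p 0.986). The next, TRINITY_DN2420_c0_g1, had 9831 and 9821 in EMS-25, against 10702 and 10710 in UV-715, without overlap but with a difference that did not pass the test (log2 fold change -0.12, SE 0.04, limma adjusted p 0.151).

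The steepest differences were features listed at 0 in a mutant, for which no fold can be given. TRINITY_DN6031_c7_g3 had 256 and 210 in EMS-25 but stood at 0 in UV-715 and in wild type (limma adjusted p 0.00195). The other features of its component kept in the test did not pass it (adjusted p 0.81, 0.219 and 0.722), and the component sum was 388 and 318 in EMS-25 against 131 and 117 in UV-715 (limma adjusted p 0.00156). The gain in EMS-25 was thus not balanced by a loss in the other features of the component. TRINITY_DN5730_c0_g1 had 51.2 and 64.1 in EMS-25 but stood at 0 in the other strains, and the other feature of its component, TRINITY_DN5730_c0_g2, was also higher, at 52 and 52.8 in EMS-25, against 22.2 and 22.1 in UV-715, with 19.4 and 19.6 in wild type (limma adjusted p 0.00672).

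TRINITY_DN3305_c0_g1, with 68.3 and 65.9 in EMS-25, and TRINITY_DN6054_c0_g1, with 45.9 and 35 in EMS-25, were likewise listed at 0 in UV-715 and in wild type. TRINITY_DN3086_c0_g2 had 27.2 and 38.8 in EMS-25, against 0 in UV-715, with 0.692 and 0 in wild type. TRINITY_DN6043_c7_g1 had 30.8 and 28.9 in EMS-25, against 0 in UV-715, with 3.81 and 0 in wild type (limma adjusted p 0.0447). These transcripts were thus near or at 0 in every library outside EMS-25.

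TRINITY_DN5526_c0_g4 showed unequal replicates, with 23.1 and 92.2 in EMS-25 against 0 in UV-715, and 17.4 and 21.8 in wild type (limma adjusted p 0.0116). TRINITY_DN5526_c0_g3 of the same component ran the other way between the EMS-25 replicates, with 85.7 and 33.5 in EMS-25, against 58.1 and 74 in UV-715 (limma adjusted p 0.799). The component sum was steadier, at 137 and 144 in EMS-25 against 83.4 and 93.4 in UV-715 (log2 fold change 0.67, SE 0.12, limma adjusted p 0.0309). The division of signal between features of that component therefore varied between libraries of the same strain, and the component sum differed far less than the single feature.

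Of the 8 steepest features in favour of UV-715, all but TRINITY_DN577_c1_g1 were at 0 in wild type too. TRINITY_DN1559_c0_g1 had 51.8 and 57.1 in UV-715 and was listed at 0 in EMS-25 and in wild type (limma adjusted p 0.00882). TRINITY_DN647_c0_g1 had 0.566 and 0 in EMS-25, against 57.3 and 50 in UV-715, with 0 in wild type (limma adjusted p 0.0109). TRINITY_DN8529_c0_g1 (30.5 and 18.7 in UV-715), TRINITY_DN10485_c0_g1 (29.6 and 18.2), TRINITY_DN934_c0_g1 (16.9 and 27.3) and TRINITY_DN4889_c0_g1 (23.9 and 16.5) were at 0 in all EMS-25 and wild-type libraries. TRINITY_DN577_c1_g1 was the exception, at 0 in both EMS-25 libraries, 13.4 and 19.3 in UV-715 and 9.25 and 19.2 in wild type (limma adjusted p 0.0181). Here EMS-25 was the strain listed at 0. The component of TRINITY_DN4889_c0_g1 holds a further feature, and its sum was lower in EMS-25, at 29.5 and 28.1 against 62.7 and 52.1 in UV-715 (limma adjusted p 0.0227). Among the 16 steepest features, 14 lost their calls without UV-715 replicate 1, 15 without UV-715 replicate 2, 14 without EMS-25 replicate 1 and 15 without EMS-25 replicate 2 (largest adjusted p 0.2, 0.242, 0.186 and 0.232), and TRINITY_DN934_c0_g1 and TRINITY_DN4889_c0_g1 also without wild type replicate 2 (largest adjusted p 0.0556). These calls also depended on the settings for low values: 11 of the 15 that passed a filter of a mean of at least 10 lost theirs under it (adjusted p up to 0.34), and 7 of 16 did with a pseudocount of 0.1 (up to 0.105). A group listed at 0 in both libraries shows no spread of its own, so the error of these features rests on the other strains and on the trend.

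**Figure D4:**
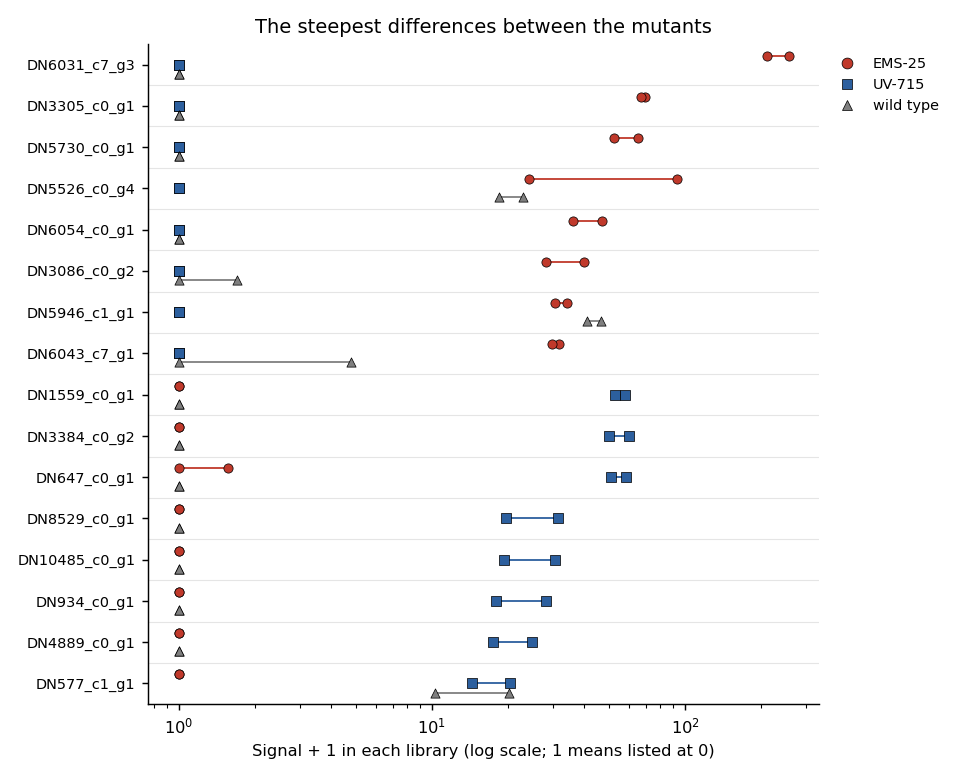
Rows are the 8 features with the largest log2 fold change in favour of EMS-25 (top) and the 8 in favour of UV-715 (bottom) among calls with a mean of at least 5. Points give the signal plus 1 in every library on a log axis, where 1 means listed at 0 (red circles EMS-25, blue squares UV-715, grey triangles wild type). In the upper rows UV-715 sits at 1 throughout, and in the lower rows EMS-25 sits at 1 except for the library with 0.566 in TRINITY_DN647_c0_g1.

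Over all features, 245 had at least 1 in both EMS-25 libraries and 0 in both UV-715 libraries, and 359 the reverse. Most were low, with median levels of 7.98 and 7.6. Calls numbered 30 of the 245 and 16 of the 359, set against 4.82% over all features and 0.383% of those with a mean under 10. The second share lay near 4.82% and the first above it, in features picked for a gap between the mutants. Of the 245, 50 were listed at 0 in both wild-type libraries, and of the 359, 142 were. With a limit of 5 in both libraries the numbers were 131 and 198, of which 26 and 96 were at 0 in wild type. With a limit of 20 they were 13 and 3, so the strongest features of this kind were mainly those present in EMS-25, while the more numerous weak ones were mainly those present in UV-715. The UV-715 libraries were the deeper ones in both replicates (relative depth 1 and 0.47, against 0.946 and 0.38 in EMS-25), the part of depth in these counts was not tested, and 0 is not evidence that a transcript is absent.

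Calls within an assembly cluster mostly ran in the same direction. Of the 846 calls, 613 were the only feature of their component. Since 59.5% of all calls were higher in EMS-25, unrelated calls in a cluster would also agree in many cases. A departure from that was not tested. Among 72 clusters with 2 or more calls, the calls ran in 1 direction in 55 and in both directions in 17. The clearest case was cluster TRINITY_DN5071, in which 7 of 7 features, in 6 components, were called higher in EMS-25, with log2 fold changes between 0.75 and 1.91. The weakest of these calls, TRINITY_DN5071_c0_g1 (limma adjusted p 0.0424), was lost without any 1 of the 6 libraries (0.0563 to 0.245), in the fit of the 4 mutant libraries alone (0.0544), with the replicate number as a block (0.0832), with a pseudocount of 0.1 (0.0524) and without the intensity trend. The cluster sum was 1641 and 1676 in EMS-25, against 823 and 788 in UV-715, with 1271 and 1341 in wild type. The assembler groups the features of a cluster as related, and their sequences were not available here. They are therefore not taken as independent measurements of a change.

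Within this cluster, the most abundant feature TRINITY_DN5071_c0_g2 had 958 and 944 in EMS-25, against 583 and 548 in UV-715, with 781 and 790 in wild type (log2 fold change 0.75, SE 0.04, limma adjusted p 0.00166). TRINITY_DN5071_c2_g1 changed most, with 185 and 151 in EMS-25, against 51.3 and 37.2 in UV-715, and 120 and 94.9 in wild type (log2 fold change 1.91, SE 0.20, limma adjusted p 0.00722). TRINITY_DN5071_c3_g1 had 93.1 and 94 in EMS-25, against 24.8 and 29.3 in UV-715, with 51.2 and 75.6 in wild type. In each of the 3 features the wild-type values lay between the mutants without overlap.

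Cluster TRINITY_DN6027 had 7 calls among 24 features, all higher in EMS-25, and 19 of the 24 log2 fold changes were above 0 (median 0.844). Over all features 4.82% were called, but this cluster, TRINITY_DN5071, TRINITY_DN6108 and TRINITY_DN6013 were chosen for having the most calls. Many calls in them therefore follow from the choice, and a larger cluster can hold more. TRINITY_DN6027_c16_g1 had 51.5 and 37.7 in EMS-25, against 8.63 and 6.15 in UV-715, with 51 and 49.6 in wild type (6.04-fold higher in EMS-25, limma adjusted p 0.00515). TRINITY_DN6027_c2_g1 had 176 and 200 in EMS-25, against 84.2 and 86.9 in UV-715, with 72 and 88.1 in wild type (2.2-fold, limma adjusted p 0.00718). Within the cluster, therefore, wild type was close to EMS-25 in the first feature and to UV-715 in the second. The weakest call, TRINITY_DN6027_c8_g1 (limma adjusted p 0.0491), was lost with libraries set to the same sum (0.0594) or rescaled by the median ratio (0.059). It was also lost without any 1 of the 6 libraries and in the fit of the 4 mutant libraries alone. A pseudocount of 0.1, no filter on low values or no intensity trend removed it as well.

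Cluster TRINITY_DN6108 had 5 calls among 24 features kept (4.82% called over all features), all higher in EMS-25 and all in component c8. The most abundant, TRINITY_DN6108_c8_g4, had 1234 and 1072 in EMS-25, against 633 and 467 in UV-715, with 1817 and 1500 in wild type (2.1-fold higher in EMS-25, limma adjusted p 0.0268). EMS-25 thus stood between UV-715 and wild type. TRINITY_DN6108_c8_g3 had 225 and 191 in EMS-25, against 88.2 and 71.9 in UV-715, with 193 and 195 in wild type (limma adjusted p 0.00473). The call of TRINITY_DN6108_c8_g2, with 180 and 182 in EMS-25, against 147 and 129 in UV-715, was lost with libraries rescaled by the median ratio (limma adjusted p 0.0516).

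Cluster TRINITY_DN6013, the largest of the 4 with 58 features kept, also had 5 calls, 4 higher and 1 lower (4.82% called over all features). Its median log2 fold change was -0.0518, with 26 features above 0 and 32 below, so the cluster as a whole showed no common direction. The lower feature, TRINITY_DN6013_c16_g1, had 730 and 728 in EMS-25, against 870 and 870 in UV-715, with 621 and 585 in wild type (log2 fold change -0.25, SE 0.04, limma adjusted p 0.0327). Over the 24 calls of these 4 clusters, 23 were lost without UV-715 replicate 1, 24 without UV-715 replicate 2, and 23 without each of the EMS-25 libraries, with 5 lost without each of the wild-type libraries (largest adjusted p 0.248, 0.255, 0.185, 0.245, 0.0787 and 0.0805 for UV-715 replicates 1 and 2, EMS-25 replicates 1 and 2 and wild type replicates 1 and 2). Without the intensity trend 22 of the 24 were not called.

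In 5 components, features were called in opposite directions. Since this is how they were chosen, a sum that differs less than its features follows from the choice, and the sums are given as a description. The steepest was TRINITY_DN3384_c0. TRINITY_DN3384_c0_g1 had 58.9 and 50.2 in EMS-25, against 7.21 and 6.16 in UV-715, with 54.8 and 59.1 in wild type (8.16-fold higher in EMS-25, limma adjusted p 0.00127). TRINITY_DN3384_c0_g2 was listed at 0 in both EMS-25 and wild type, against 59.1 and 49.2 in UV-715 (limma adjusted p 0.00894). The features thus exchanged places between the mutants, and their sum was 58.9 and 50.2 in EMS-25, against 66.3 and 55.3 in UV-715, with ranges that overlap (limma adjusted p 0.566).

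TRINITY_DN6068_c0 and TRINITY_DN4097_c0 showed the same arrangement with both features present in all strains. TRINITY_DN6068_c0_g1 had 46.7 and 40.6 in EMS-25, against 17.9 and 21.6 in UV-715, while TRINITY_DN6068_c0_g2 had 33.7 and 33.3 in EMS-25, against 83.5 and 80.2 in UV-715. Their sum was 80.4 and 74 in EMS-25, against 101 and 102 in UV-715 (limma adjusted p 0.0891). TRINITY_DN4097_c0_g1 had 119 and 119 in EMS-25, against 91.7 and 87.7 in UV-715, while TRINITY_DN4097_c0_g2 had 63.4 and 71.4 in EMS-25, against 130 and 125 in UV-715. The sum was 182 and 190 in EMS-25, against 222 and 212 in UV-715 (limma adjusted p 0.0706), and neither total passed the test.

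In TRINITY_DN6097_c2 the features moved by small steps: TRINITY_DN6097_c2_g2 had 529 and 499 in EMS-25, against 435 and 418 in UV-715, and TRINITY_DN6097_c2_g3 had 975 and 946 in EMS-25, against 1190 and 1168 in UV-715. The component sum was 1517 and 1457 in EMS-25, against 1633 and 1593 in UV-715 (limma adjusted p 0.237). TRINITY_DN5009_c0 was the exception, since its larger feature set the sum. TRINITY_DN5009_c0_g1 had 184 and 192 in EMS-25, against 109 and 121 in UV-715, TRINITY_DN5009_c0_g2 had 0 in EMS-25, against 8.04 and 10.3 in UV-715, and the sum was higher in EMS-25, at 184 and 192 against 117 and 131 (limma adjusted p 0.0144). Of the 10 features in these 5 components, 9 lost their calls without UV-715 replicate 1, 10 without UV-715 replicate 2, 8 without each of the EMS-25 libraries and 2 without each of the wild-type libraries (adjusted p up to 0.271), and 7 were not called without the intensity trend (up to 0.394). With values summed over components before the fit, 999 of 15103 components were called, 575 higher and 424 lower in EMS-25. Of the 233 called features that share a component with another, 175 stood in a component that was called in the same direction, 57 in one that was not called and 1 in one called in the opposite direction. Each sum contains the called feature itself, so agreement in direction is partly built in.

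Wild type was used to describe which mutant stood apart. On the log2 scale, the wild-type mean was nearer to EMS-25 than to UV-715 in 618 of the 846 called features (73%) and nearer to UV-715 in 228. Over all 17535 features the share nearer to EMS-25 was 55.7%, and among the 1621 whose mean was 100 or more it was 61.9%. Among features higher in EMS-25 it was 354 of 503 (70.4%) and among lower ones 264 of 343 (77%). For a called feature the median distance of wild type was 0.264 from EMS-25 and 0.594 from UV-715. The wild-type libraries took part in the estimate of spread but not in the difference tested, and these shares are a description without a test.

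In most calls the wild-type mean lay between the mutant means, in 395 nearer to EMS-25 and in 166 nearer to UV-715. Among all 17535 features these numbers were 3302 and 2696. Both wild-type libraries stood between the ranges of the mutants in 428 of the 846, and outside all 4 mutant libraries in 182. Among all features these numbers were 1100 and 3614, so the share outside lay near that over all features, most of which are low. Among features with a mean of 100 or more, both wild-type libraries stood outside in 112 of 422 calls and in 549 of all 1621. At that level the share outside was thus smaller in calls. Calls are chosen for a gap between the mutants, which leaves more room between them. In 223 calls the wild-type mean lay beyond EMS-25, so that EMS-25 was the intermediate strain, and in 62 it lay beyond UV-715 (6460 and 5077 among all features). The same order held among the 318 calls of at least 2-fold, where wild type was nearer to EMS-25 in 241 (75.8%).

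**Figure D5:**
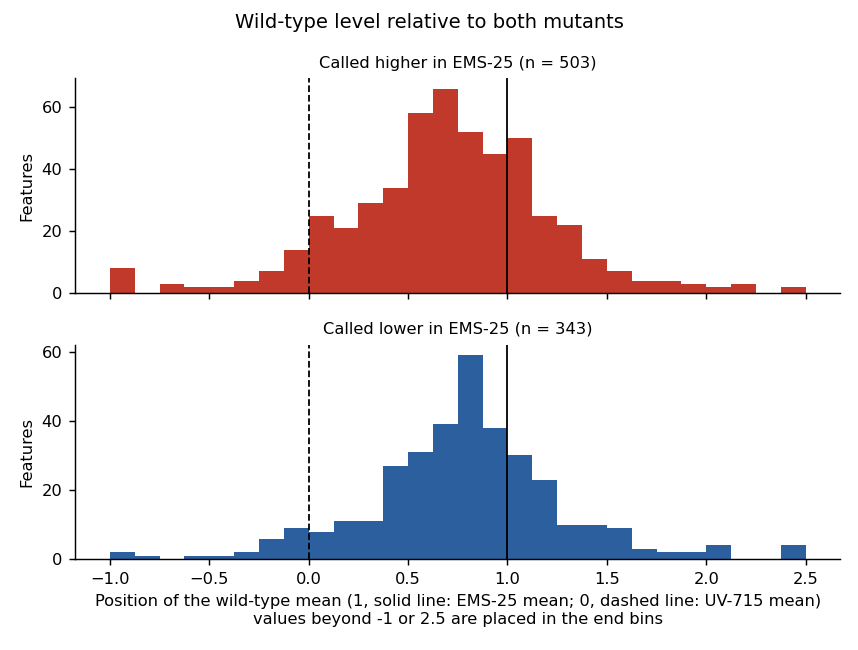
Histograms give the number of called features (y axis) by the position of the wild-type mean on a scale where 0 is the UV-715 mean and 1 the EMS-25 mean of log2(signal + 1) (x axis), for features higher (top, 503) and lower (bottom, 343) in EMS-25. Values outside the axis are placed in the end bins. In both panels most features lie to the right of the midpoint, with medians of 0.697 and 0.798.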

How the data were processed

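Per the labels, messenger RNA was enriched with oligo(dT) beads and read by MiSeq from both ends (75 bp). RSEM, edgeR, Trimmomatic 0.32 and FastQC 0.11.5 appear in the submitters' processing notes, with no role stated. How the transcripts were assembled or filtered is not given in the sources used here. The deposited table holds a normalised expression signal per feature and library, which the authors had scaled between libraries, so no count model was used.

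Features with at least 1 in 2 or more of the 4 mutant libraries were kept. The log2 of the value plus 1 entered a limma fit (version 3.58.1, R 4.3.3) with strain as the only term, all 6 libraries in 1 fit, an intensity trend and empirical Bayes moderation (degrees of freedom: 3 residual, 2.61 prior). The test was two-sided, with a Benjamini-Hochberg adjusted p under 0.05 over all 17535 features. The fit was tested on simulated data in which changes were placed only in abundant features. It therefore says nothing about how well changes are found in features of low signal. Python 3.11.15, numpy 2.4.6, pandas 2.3.3 and matplotlib 3.10.9 were used otherwise.

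Named features were, per direction, the 8 with the largest absolute log2 fold change (mean of at least 5, mutants not overlapping), the 4 with the smallest p and the 4 with the largest difference in level, then the calls of the 3 clusters with most calls (4 with a tie) and the 5 components with opposite calls. Members, lists and rules were chosen with earlier results of these data known.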

Additional observations from a re-analysis of the deposited data

How the results depend on the processing

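The count of features higher in EMS-25 (503) and lower (343) stayed within 1.5 times under other pseudocounts (0.1 and 5), filters, rescalings, robust moderation and component sums, and in a fit of the 4 mutant libraries alone (440 and 306). It was 122 and 166 without the intensity trend (142 of these calls were among the 846) and 60 and 45 against a 1.5-fold threshold. With 1 library left out it ranged from 21 to 447 higher and from 5 to 297 lower. All 846 calls kept their sign in these fits, and 692 were lost in each of the 4 that lack a mutant library, which leaves 1 library in an arm that is assumed to vary like the others. No called feature that is named changed sign except under component sums, which gave -0.15 for TRINITY_DN3384_c0_g1, 0.60 for TRINITY_DN5009_c0_g2, -0.39 for TRINITY_DN6068_c0_g1, -0.22 for TRINITY_DN4097_c0_g1 and -0.12 for TRINITY_DN6097_c2_g2, because the other feature of the component outweighs them.

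The labels share replicate numbers without saying what they mark. The log2 difference between replicates 1 and 2 had a Pearson's r of 0.0615 between EMS-25 and UV-715, 0.059 between EMS-25 and wild type and 0.0377 between UV-715 and wild type over 17535 features, and of 0.445, 0.277 and 0.226 over the 1621 with a mean of at least 100. Replicate 2 was the shallower library in every strain. With a replicate block the count was 428 higher and 278 lower, and calls were lost in 4 of the 16 steepest features (TRINITY_DN6043_c7_g1, TRINITY_DN10485_c0_g1, TRINITY_DN934_c0_g1 and TRINITY_DN4889_c0_g1), in 4 of the 24 calls of the 4 clusters and in 2 of the 10 features of components with opposite calls (adjusted p up to 0.0647, 0.0832 and 0.0695). The replicate 2 libraries had the lowest relative depth and the most features at 0. The part of depth in values of 0 and in the few calls under 10 was not tested.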
